A study of Mus musculus with 6 samples.

Results

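Transcription factors that direct the formation of macrophages, monocytes and granulocytes were followed in osteoblast cultures with and without verapamil. The set of 9 genes was fixed by name: Spi1, Maf, Ikzf1, Cebpa, Cebpb, Cebpd, Cebpe, Runx1 and Runx3. All 9 were among the 17491 genes of the count table, and 8 passed the low-count filter and were tested. RNA-seq libraries were made from day 7 osteoblast cultures, grown out of wildtype mouse stem cells from the marrow of tibia and femur. Medium of low glucose content, with ascorbic acid, β-glycerophosphate and dexamethasone, was used for both groups. There were 3 control libraries and 3 from cultures labelled as treated with verapamil, a drug that blocks L-type calcium channels. Its dose and the length of exposure are not given in the labels, nor are the strain, age or sex of the mice. Because no label tells if replicates are separate cultures or mice, each p-value covers the spread among these 6 samples alone, which may be technical.

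These factors work as a network in blood formation. PU.1, the ETS protein encoded by Spi1, is needed for macrophages to form, and together with C/EBP and RUNX proteins it opens the enhancers of myeloid genes. C/EBPα starts granulocyte and monocyte commitment, C/EBPβ and C/EBPδ act in mature myeloid cells and in inflammation, and C/EBPε completes granulocyte maturation. Runx1 is required for blood stem cells to arise, and Runx3 acts in lymphocytes and in several myeloid cells. Ikaros, from Ikzf1, is a zinc finger factor of lymphoid and myeloid cells, and c-Maf, from Maf, serves mature macrophages. Several of them are not restricted to blood: C/EBP proteins also drive fat cell formation, and Runx1, Runx3 and Maf are transcribed in skeletal cells as well.

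Library totals ran from 18.2 M to 21.7 M estimated reads. The labelled cell type was met: 15 of 16 osteoblast markers exceeded 1 CPM (reads per 1 M reads, scaled by TMM factors) in at least 1 library. Their summed level was 51480 to 65480 CPM in the controls and 30900 to 31450 CPM with verapamil, with 13 of 16 lower. All 20 macrophage markers were present as well, summing to 11610 to 14270 CPM in the controls and 20590 to 23190 CPM with verapamil, with 14 higher, 1 lower and 5 not past the test. The lower one was Cx3cr1, the fractalkine receptor (-2.31), and the largest rise was that of Mpeg1, encoding the pore-forming perforin-2 (1.16). For scale, 15.4% of all 13366 genes tested were higher and 16.3% lower at an adjusted p under 0.05. In bulk RNA, a change in the number of cells of a type and a change in RNA per cell cannot be told apart. Markers of other blood cells were lower in level. Lymphocyte markers, all 9 under 1 CPM in every library, summed to 0.689 to 0.748 CPM in the controls and 1.12 to 1.62 CPM with verapamil, and neutrophil markers to 10.7 to 11.5 and 20.8 to 23.8 CPM. Of 5 neutrophil markers tested, 3 rose. Among these was S100a8, which passed the filter through the verapamil libraries, so its call is no support. Of 8 osteoclast markers tested, 3 rose, among them Atp6v0d2 (1.02), and 3 fell, among them Itgb3 (-0.80), though only 1 fell without control replicate 1 or any 1 verapamil replicate. Pf4 (-1.09), at 59.8 CPM in the controls, was the lower 1 of 3 erythroid and megakaryocyte markers tested, Plvap (-0.88) and Pecam1 (-0.58) led 4 lower of 9 endothelial ones (2 lower among genes of at least 5 CPM in 3 libraries), and the mast cell marker Kit, at 9.47 CPM in the controls, did not pass (-0.37). Of 11 proliferation genes 4 rose, a count that ran from 1 without control replicate 1 or verapamil replicate 1 to 11 without control replicate 3.

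Spi1 and Ikzf1 were higher with verapamil, Runx1 and Runx3 were lower, and the C/EBP genes and Maf did not pass the test. Of the 8 members tested, 2 rose and 2 fell at an adjusted p under 0.05, where 31.7% of all 13366 genes tested were called, 15.4% higher and 16.3% lower. Scaled by library totals alone, the same genes gave 2829 higher and 1615 lower, against 2055 and 2180 with TMM factors. The groups did not overlap for 5 of the 8 members, against 49.6% of all genes, with verapamil above in 25.2% and below in 24.4%. The median log2 fold change of the 8 members was 0.11, and that of all genes was 0.01. Unless another tool is named, an adjusted p is from the quasi-likelihood test of edgeR, by Benjamini-Hochberg over every gene tested. Fold changes are verapamil over control, given with their standard error (SE).

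**Figure D1:**
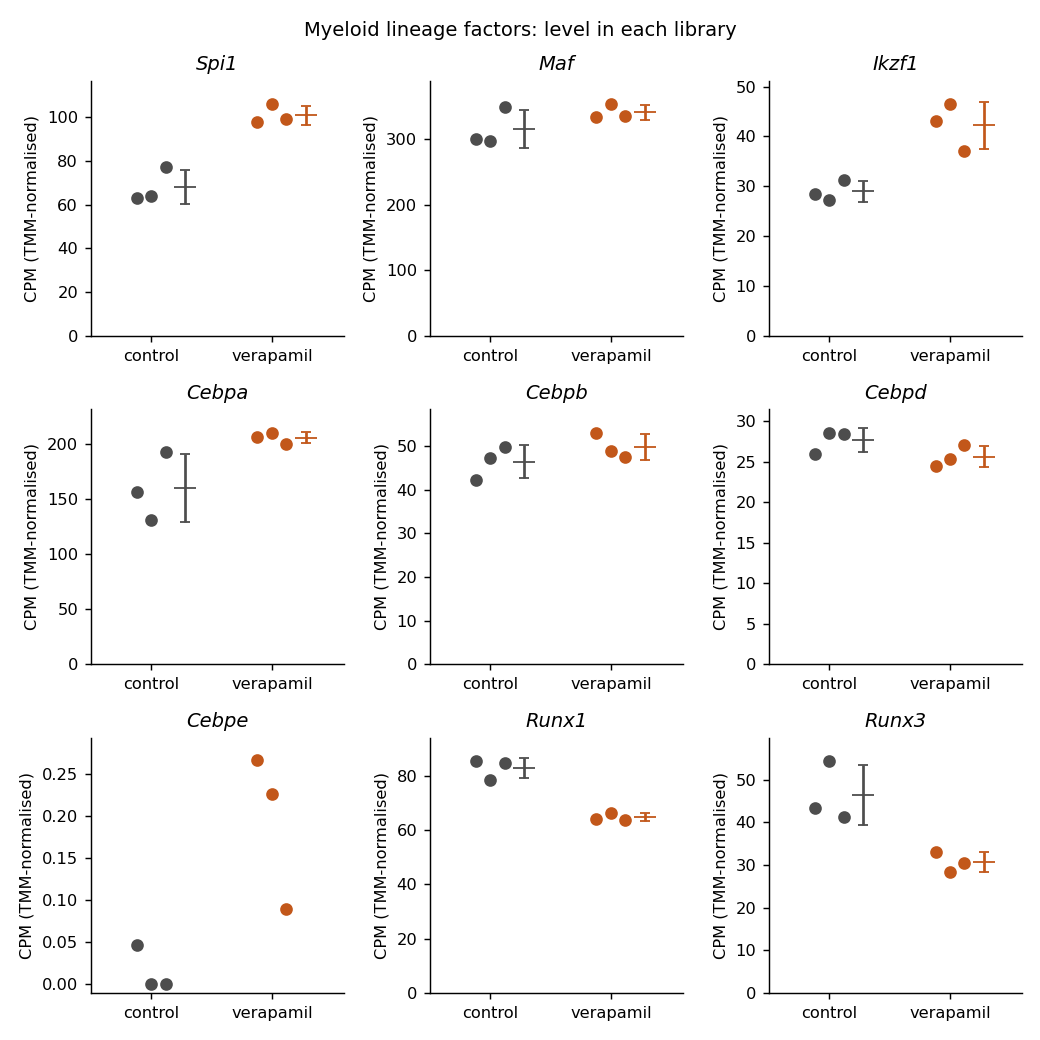
TMM-normalised CPM of the 9 members in each library (points), with mean and SD (bars, n = 3 per group; none for Cebpe, which was not tested), on axes that start at or just below 0. Verapamil points lie above all control points for Spi1 and Ikzf1 and below them for Runx1 and Runx3, and the groups overlap for Maf, Cebpb and Cebpd.

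Spi1 (Entrez 20375, protein-coding, chromosome 2, 91082374 to 91115759 in GRCm38) was at 63.1, 64.0 and 77.1 CPM in control replicates 1, 2 and 3 and at 97.7, 105.9 and 99.1 CPM in verapamil replicates 1, 2 and 3. Every verapamil library lay above every control library, and control replicate 3 was the highest control. The mean went from 68.1 ± 7.82 to 100.9 ± 4.38 CPM (SD, n = 3), or 0.57 ± 0.08 SE in log2 fold change (adjusted p = 0.00206). The call held in all 14 alternative analyses, with adjusted p between 4.35e-07 and 0.0155.

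Ikzf1 (Entrez 22778, chromosome 11, 11684962 to 11772930) was at 28.6, 27.2 and 31.3 CPM in the controls and at 43.2, 46.5 and 37.1 CPM with verapamil. The groups were again apart, and the gap was smallest between control replicate 3 and verapamil replicate 3. The log2 fold change was 0.54 ± 0.09 SE (adjusted p = 0.00433). It passed in all 14 alternatives, at adjusted p of 6.02e-05 to 0.0279. Ikzf1 was also set against Spi1 within each library. The log2 ratio of their counts averaged -1.23 ± 0.0781 in the controls and -1.26 ± 0.135 with verapamil (SD, n = 3), a difference of -0.04 with overlapping groups (exact permutation test, two-sided, p = 0.8, where 3 against 3 cannot go below 0.1). Ikzf1 is also a lymphocyte gene. The T and B cell markers Cd3d, Cd79a and Ms4a1 were each at 0.0939 CPM or less in every library. Cd4, which some mouse myeloid cells also express, averaged 0.177 CPM in the controls and 0.607 CPM with verapamil, and Cd79b averaged 0.0157 and 0.143 CPM. Both had every verapamil library above every control and were too low to be tested. Cd8a, the highest lymphocyte marker over all 6 libraries, averaged 0.41 and 0.551 CPM (0.41 ± 0.41 SE, adjusted p = 0.480). By edgeR it was the 1 lymphocyte gene tested and 0 were called, with 0 at an unadjusted p under 0.05. A lymphocyte gene was called higher without the low-count filter, without control replicates 2 or 3, or without verapamil replicate 1. The part of lymphocyte RNA in the rise of Ikzf1 was not tested.

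Both rises went along with higher macrophage markers, and their part in these results was not tested. Set against the summed macrophage markers of the same library, Spi1 was lower by 0.18 and Ikzf1 lower by 0.21 on the log2 scale, with groups that did not overlap. The log2 ratio of Spi1 to that sum was -7.69, -7.50 and -7.53 in the controls and -7.79, -7.78 and -7.70 with verapamil, so that the lowest control and the highest verapamil library all but touched. The sum is carried by the lysozyme gene Lyz2, which made up 37.6% to 45.3% of it in the controls and 50.2% to 52.2% with verapamil. Without Lyz2, a choice made after its share was seen, the differences turned to 0.06 for Spi1 and 0.03 for Ikzf1. The log2 fold change of Lyz2 itself was 1.02.

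Runx1 and Runx3 went the other way, in the same libraries in which 13 of 16 osteoblast markers fell and their sum went from 51480 to 65480 CPM down to 30900 to 31450 CPM. Those 13 include Runx2 itself, and Ifitm5, whose call is no support, and the largest parts of the control sum were Col1a1 and Col1a2. The part of osteoblasts in the lower RUNX levels was not tested. Runx1 (Entrez 12394, chromosome 16, 92601466 to 92826074) was at 85.5, 78.7 and 84.7 CPM in the controls and at 64.3, 66.5 and 63.8 CPM with verapamil, 3 values within a narrow band below every control. Its log2 fold change was -0.35 ± 0.06 SE (adjusted p = 0.00280). Runx3 (Entrez 12399, chromosome 4, 135120645 to 135177990) was at 43.5, 54.4 and 41.2 CPM in the controls and at 33.1, 28.4 and 30.6 CPM with verapamil. Control replicate 2 was the highest library for Runx3 and the lowest control for Runx1. The log2 fold change of Runx3 was -0.59 ± 0.11 SE (adjusted p = 0.00583). Each call held in all 14 alternatives, at adjusted p of up to 0.0223 for Runx1 and 0.0313 for Runx3.

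Among their relatives and partners, Runx2 was lower in all 14 alternatives, and the calls of the other genes were less stable or absent. Runx2, the early regulator of osteoblasts, was 104.8 ± 5.88 CPM in the controls and 74.0 ± 1.96 CPM with verapamil, or -0.50 ± 0.06 SE (adjusted p = 7.98e-04). The DNA-binding partner Cbfb, which every RUNX protein needs for stable binding, went from 134.8 ± 8.25 to 114.1 ± 2.27 CPM (-0.24 ± 0.06 SE, adjusted p = 0.0174). Cbfb missed the threshold when control replicate 1 or any 1 verapamil replicate was left out (adjusted p = 0.0588 to 0.0754), when libraries were scaled by totals (0.126) and with the replicate block (0.058). The ETO-family corepressor genes Cbfa2t2 (-0.24) and Cbfa2t3 (-0.98) fell, and Runx1t1 did not pass (0.16 ± 0.14 SE, adjusted p = 0.423). Cbfa2t2 lost its call without control replicate 1 or any 1 verapamil replicate, with library totals (adjusted p = 0.0947) and with the replicate block (0.0647). Cbfa2t3, at about 1 CPM in the controls, lost it without control replicates 1 or 2 or verapamil replicates 1 or 2, by DESeq2 (adjusted p = 0.109), without the low-count filter (0.0527) and with the block (0.0848). Cbfa2t3 had 23, 19 and 20 reads in the controls and 8, 9 and 15 with verapamil. It passed the filter through the control libraries, so its call is no support. Relative to Runx2, Runx1 was higher with verapamil. The log2 ratio of their counts was -0.33, -0.32 and -0.36 in the controls and -0.19, -0.12 and -0.26 with verapamil, a difference of 0.15 (exact permutation test, two-sided, p = 0.1, the smallest that 3 against 3 can give). Runx3 relative to Runx1 differed by -0.23 with overlapping groups (exact permutation test, p = 0.3).

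The 3 RUNX genes carried the same short sequence at their upstream start site. RefSeq promoter windows for GRCm38.p6, 300 bases that span each annotated start, were searched on both strands for the RUNX core motif TGTGGT. Those of the upstream starts of Runx1, Runx2 and Runx3 each held a pair of matches on the reverse strand, read here as ACCACA and shown in capitals, with their starts 8 bases apart. The 30 bases around each pair are given along the gene's strand, to show what the family shares in sequence. They were chosen after the lower levels of these genes had been seen, and a link between the pair and those levels was not tested.

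Runx1, chr16:92826025-92826054, minus strand: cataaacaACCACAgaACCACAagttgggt
Runx2, chr17:44814583-44814612, minus strand: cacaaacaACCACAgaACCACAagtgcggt
Runx3, chr4:135120503-135120532, plus strand: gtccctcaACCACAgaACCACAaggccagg

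Counting the first transcribed base as position 0, the matches began at 28 and 36 in Runx1, at 23 and 31 in Runx2 and at -134 and -126 in Runx3. The Runx2 window held 3 matches in all, the other one outside the pair, upstream of the start at -80. The pair therefore lay downstream of the start in Runx1 and Runx2 and upstream of it in Runx3. All 3 shared the run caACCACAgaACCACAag of 18 bases, which was found on the gene's strand in 3 of the 32851 windows of the table. That run was taken from these same windows, so its presence in them was fixed in advance. A pair of matches spaced 8 bases apart on 1 strand was in 7 windows (0.0213%), a spacing counted after it had been seen, and a single TGTGGT was in 16.8%. The second windows of Runx1 and Runx3, at their downstream starts, held none. The table counts reads per gene, so the start in use cannot be read from it, and a match is a description of the sequence only. Windows were also found for Ikzf1, Cebpa and Cebpb, and none for Spi1, Maf, Cebpd and Cebpe. In the windows of the 5 members found, the C/EBP motifs TTGCGCAA and TTGCNNAA (0.183% and 10.8% of all windows, the first contained in the second), the PU.1 motif GAGGAAGT (3.2%) and the MAF motif TGCTGAC (4.67%) had no match. The shorter PU.1 core GAGGAA, within the longer one and in 28.3% of all windows, matched once, in the second Runx1 window.

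None of the 3 C/EBP genes tested passed edgeR's test, and they ranged from 24.5 to 210 CPM. Cebpa (Entrez 12606, chromosome 7, 35119293 to 35121928) was at 156, 131 and 193 CPM in the controls and at 206, 210 and 200 CPM with verapamil. All verapamil libraries lay above all controls, but the controls were spread widely and control replicate 3 came close to the verapamil libraries. The log2 fold change was 0.36 ± 0.13 SE, with an adjusted p of 0.0626 in edgeR's test. Without control replicate 3 it was 0.51 (adjusted p = 0.00139), and with all libraries the test of DESeq2 gave adjusted p = 0.0233 and limma-voom 0.0487. In the other 11 of the 14 alternatives Cebpa did not pass. Without control replicate 2 its log2 fold change was 0.23 (adjusted p = 0.0522). Without control replicate 1 or any 1 verapamil replicate, the adjusted p was 0.13 to 0.169.

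Cebpb (Entrez 12608, chromosome 2, 167688915 to 167690432) was at 42.3, 47.2 and 49.8 CPM in the controls and at 53.1, 48.8 and 47.5 CPM with verapamil. The groups overlapped, and the log2 fold change of 0.10 ± 0.08 SE had a 95% interval of -0.08 to 0.28 (adjusted p = 0.355). Cebpd (Entrez 12609, chromosome 16, 15887286 to 15889545) was at 26.0, 28.6 and 28.4 CPM in the controls and at 24.5, 25.4 and 27.1 CPM with verapamil. These values overlapped too, at -0.11 ± 0.07 SE with a 95% interval of -0.27 to 0.06 (adjusted p = 0.283). Neither gene passed in any of the 14 alternatives. Within libraries, the mean log2 ratio of Cebpa to Cebpb was higher with verapamil by 0.28, and that of Cebpd to Cebpb lower by 0.21. Neither ratio overlapped between groups, but in both the groups all but touched. For Cebpa over Cebpb the highest control was 1.952 and the lowest verapamil library 1.958. For Cebpd over Cebpb the lowest control was -0.8094 and the highest verapamil library -0.8125. Each exact permutation test, two-sided, gave p = 0.1, the smallest possible with 3 against 3. Adjusted over the 13 ratios tested, each value was 0.118.

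Cebpe (Entrez 110794, chromosome 14, 54710363 to 54712174), the factor of late granulocyte maturation, was close to undetected. It had 1, 0 and 0 reads in the controls and 5, 5 and 2 reads with verapamil, 13 in all, and was taken out by the low-count filter. The ratio of summed reads, corrected for library size, was 11.7 with an exact 95% interval of 1.73 to 501 that covers counting error only. Tested without the filter, it had an adjusted p of 0.059 in edgeR's test. Cebpg, a C/EBP protein without an activation domain, was at 78.0 ± 1.87 and 70.1 ± 1.62 CPM (-0.16 ± 0.05 SE, adjusted p = 0.0505), near the threshold. It passed in 5 of 14 alternatives. Ddit3, which encodes the stress-induced partner CHOP, did not pass (-0.82 ± 0.29 SE, adjusted p = 0.0790). Of the 14 alternatives, it passed only without control replicate 3 (adjusted p = 3.00e-04). Cebpz, a CCAAT-binding protein outside the leucine zipper family, had a log2 fold change of 0.01 ± 0.07 SE.

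Maf (Entrez 17132, chromosome 8, 115703253 to 115706894) had the most reads of the 9 members. It was at 301, 297 and 348 CPM in the controls and at 334, 353 and 335 CPM with verapamil, and the groups overlapped through control replicate 3. The log2 fold change of 0.11 ± 0.08 SE had a 95% interval of -0.06 to 0.28 (adjusted p = 0.294). Without control replicate 3 it was 0.19 and passed (adjusted p = 0.0398). In the other 13 of the 14 alternatives Maf did not pass, with adjusted p of up to 0.586. Among small MAF proteins, which lack an activation domain, Maff fell from 29.9 ± 9.77 to 11.6 ± 1.41 CPM (-1.36 ± 0.24 SE, adjusted p = 0.00756). Mafg (-0.01 ± 0.05 SE) and Mafk (-0.07 ± 0.06 SE) did not pass, and the sign of each turned when libraries were scaled by totals. Of the Ikaros relatives, Ikzf2 (Helios) fell by 0.51 (adjusted p = 0.0103), a call lost without verapamil replicate 2 (adjusted p = 0.0528). Ikzf4 (0.31 ± 0.27 SE) and Ikzf5 (-0.08 ± 0.12 SE) did not pass. Only without control replicate 2 did Ikzf5 pass, with a log2 fold change of -0.21 (adjusted p = 0.0360).

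**Figure D2:**
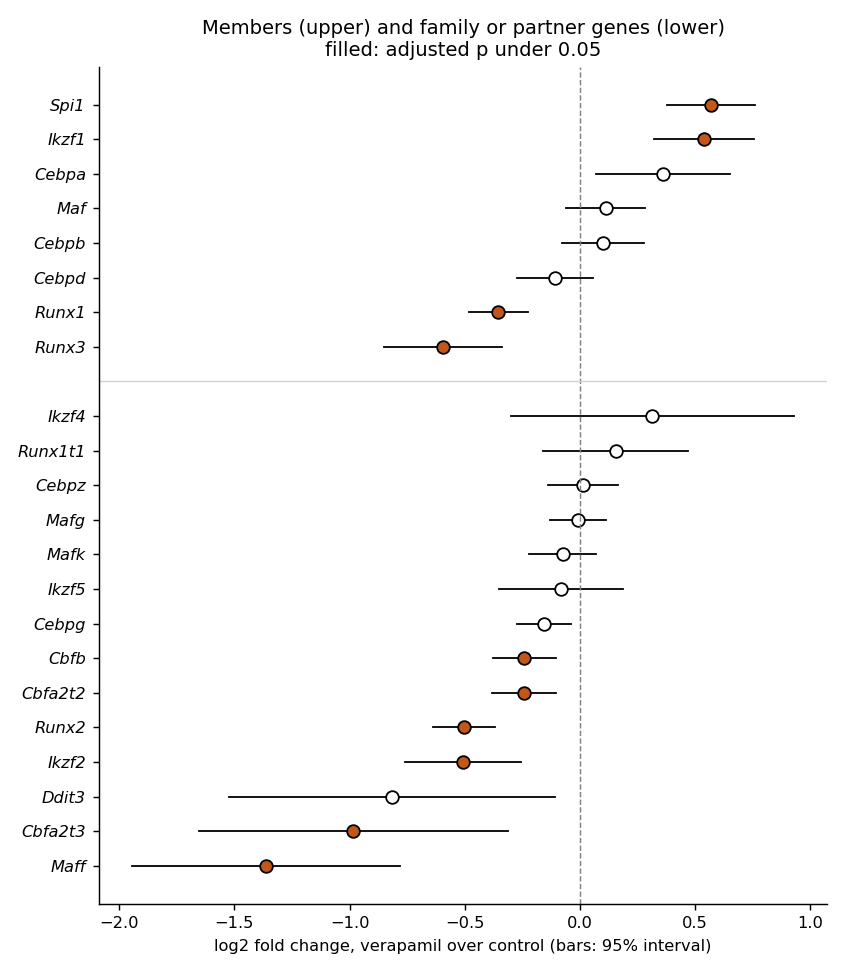
Log2 fold change of verapamil over control (x axis) for the 8 tested members (upper block) and the 14 tested family and partner genes (lower block), with 95% intervals, filled where the adjusted p was under 0.05. Filled points lie to the right of 0 for Spi1 and Ikzf1 and to the left for Runx1, Runx3 and 6 relatives. Of these relatives, Cbfa2t3 passed the filter through the control libraries, so its call is no support.

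Of 14 family and partner genes tested, 6 fell and 8 did not pass, with a median of -0.20. Among the 6 was Cbfa2t3, whose call is no support. Over all genes tested, 16.3% fell. Leaving out control replicate 1 or verapamil replicate 1 brought the number lower to 3, as did the replicate block, and leaving out verapamil replicate 2 brought it to 2.

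To compare levels between genes, counts were divided by the length of the longest annotated transcript and scaled to the same total in every library, as TPM are. On that scale Cebpa led in the controls at 168 ± 40.2, followed by Maf at 137 ± 18.3, Spi1 at 92.2 ± 14.3 and Cebpb at 84.8 ± 8.87 (SD, n = 3). Runx1 (38.9 ± 3.51), Runx3 (32.6 ± 3.32), Cebpd (20.3 ± 1.29), Ikzf1 (15.5 ± 1.83) and Cebpe (at most 0.105) came after. The ranges of Cebpa and Maf, of Spi1 and Cebpb, and of Runx1 and Runx3 overlapped among the controls, while the other neighbours in the order were apart. With verapamil the first 5 places were the same, with Spi1 at 135 ± 5.65 now clear of Cebpb at 90.2 ± 5.42. Ikzf1 (22.3 ± 2.51) stood level with Runx3 (21.5 ± 1.68), whose ranges overlapped, and both were above Cebpd (18.6 ± 0.934) in the mean. By coding length instead, Maf came before Cebpa in both groups and Runx1 (66.5) before Cebpb (58.4) in the controls. With verapamil, Cebpd (35.0) then came before Ikzf1 (28.9) and Runx3 (26.5). The order of these genes thus depends on the length used.

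Shares within a family show which paralogue made up its RNA. In the Ikaros family, Ikzf1 held 38.9% to 45.3% of the summed level per length in the controls and 50.6% to 54.2% with verapamil, and Ikzf5 went from 45.4% to 52.3% down to 38.3% to 42.3%. Among C/EBP genes, Cebpa held 47.2% to 56.4% in the controls and 57.8% to 59.6% with verapamil, Cebpg 12.4% to 15.9% and at most 11.3%, and Cebpe at most 0.158%. By coding length the mean share of Cebpg was 42.6% in the controls, above Cebpa at 36.2%, and 35.8% against 43.9% with verapamil, so which gene leads depends on the length used. In the RUNX family Runx3 had the lowest share in every library but control replicate 2, where Runx1 did. Runx1 held 31.5% to 34.5% in the controls and 35.6% to 38.0% with verapamil, Runx2 35.6% to 40.2% and 36.8% to 38.6%, and Runx3 25.3% to 32.9% and 24.5% to 27.6%. By coding length the means with verapamil were 41.5% for Runx1, 36.9% for Runx2 and 21.6% for Runx3. Spi1 made up at least 99.7% of the PU.1 subfamily, beside Spib and Spic.

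**Figure D3:**
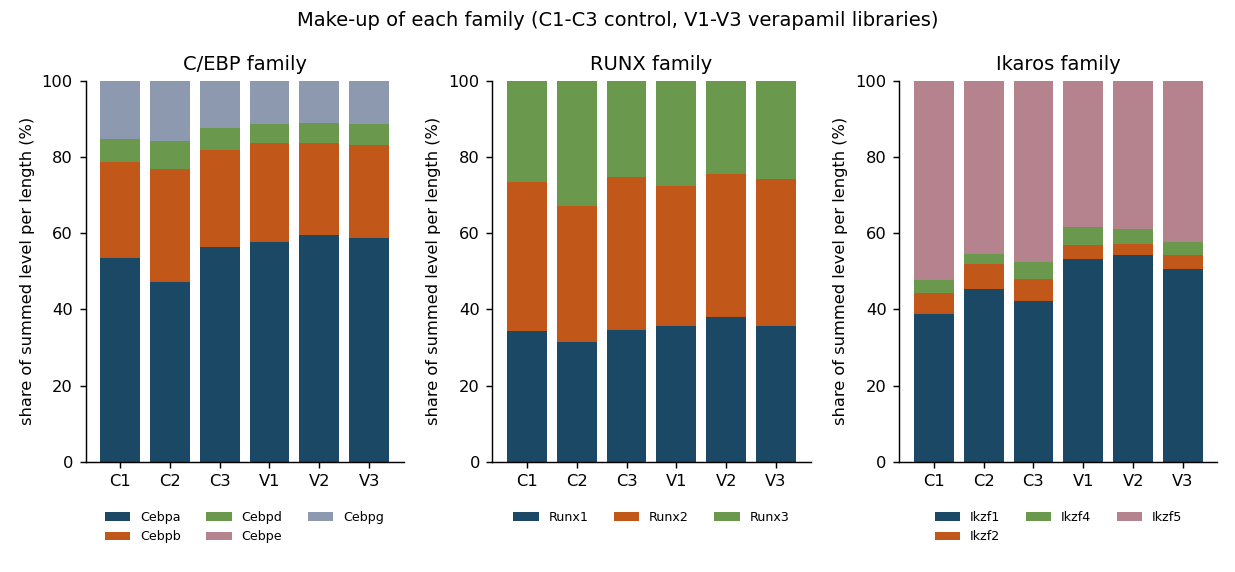
Share of each gene in its family's summed level per length (y axis, %) in control libraries C1 to C3 and verapamil libraries V1 to V3, as stacked bars. The share of Ikzf1 is higher in all verapamil libraries, at 50.6% to 54.2%, and the share of Runx3 with verapamil, at 24.5% to 27.6%, lies below those of Runx1 and Runx2.

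Other transcription factors of blood cells also went both ways. Of 33 tested, 9 rose, 6 fell and 18 did not pass, with a median of 0.01. Over all genes tested, 15.4% rose and 16.3% fell, also with a median of 0.01. Those that rose were Irf8 (0.65 ± 0.10 SE, adjusted p = 0.00284), the partner of PU.1 in monocyte formation, with Irf5, Lyl1, Lmo2, Fli1, Id2, Tfec, Hhex and Nr1h3, at 0.34 to 0.74. Hhex had the largest rise, from 5.18 to 8.65 CPM. The lower ones were Klf2 (-0.81), Klf4 (-0.58), Bach2 (-0.55), Tcf4 (-0.34), Nfatc1 (-0.32), the osteoclast regulator, and Nr4a1 (-0.63). Except for Hhex and Klf2, they were chosen after their values were seen. Lyl1 lost its call without control replicate 1 or any 1 verapamil replicate (adjusted p of up to 0.126) and with the replicate block (0.0566). Fli1 and Bach2 lost theirs without control replicate 1 or verapamil replicates 1 or 2, Nfatc1 without control replicate 1 or any 1 verapamil replicate, and Nr1h3 without verapamil replicate 2.

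Genes known as targets of these factors were read next, from lists that overlap with cell type markers. Their counts stand beside 15.4% higher and 16.3% lower over all genes tested. Of 20 PU.1 targets, 15 rose and 5 did not pass, with a median of 0.46. Of these 20, 7 are also on the macrophage list. The signalling adaptor Tyrobp (0.88 ± 0.08 SE) and the endotoxin co-receptor Cd14 (0.83) rose most. Csf1r, the receptor for the macrophage growth factor and a classic PU.1 target, was at 302 ± 43.1 and 360 ± 30.7 CPM and did not pass (0.25 ± 0.11 SE, adjusted p = 0.111). It was named after its value was seen, and passed without control replicate 3 (adjusted p = 0.00726) but in none of the other 13 alternatives. Of 11 tested genes linked to MAF proteins in macrophages, 6 rose, 1 fell and 4 did not pass, with a median of 0.36. Cd5l (1.72) and the fatty acid receptor Cd36 (1.45) led them, and 6 of the 12 listed are macrophage markers.

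Granule genes under C/EBPε differed widely in level. Lyz2, Cybb and Chil3, which macrophages also express, averaged 5536, 201 and 147 CPM in the controls, and Chil3 (2.42) and Mmp8 (1.79) had the largest rises. Genes of granulocyte precursors were near 0. Elane was at 0 in all controls and at 0.0451 to 0.0898 CPM with verapamil, and Ltf and Prtn3 were at 0.276 CPM or less in every library. Of the 15 listed genes in the table, 9 were under 1 CPM in every library, and of 7 tested 6 rose, against 15.4% of all genes. The list shares 11 of its 19 genes with the neutrophil markers. Among the 6, S100a8 had 13, 6 and 6 reads in the controls and 21, 21 and 15 with verapamil and passed the filter through the verapamil libraries, so its call is no support. Csf3r, the G-CSF receptor, rose by 0.59 (adjusted p = 0.00601).

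Acute-phase and inflammatory genes associated with C/EBPβ and C/EBPδ went both ways, with 2 of 10 tested higher, 4 lower and 4 not past the test, and a median of -0.15. Over all genes tested, 15.4% rose and 16.3% fell, which is also the share to set beside the fat cell genes below. Igf1 rose by 1.15. Ptgs2, encoding cyclooxygenase-2, fell by 1.47 (adjusted p = 0.0381), a call lost without control replicates 1 or 2 or any 1 verapamil replicate, by limma-voom (adjusted p = 0.0634) and without the low-count filter (0.0867). The number lower was 2 without control replicate 1 or verapamil replicates 1 or 3, and the number higher was 1 without verapamil replicates 1 or 2. Of 11 tested genes of fat cells, where C/EBPα acts with PPARγ, 5 rose, 1 fell and 5 did not pass, with a median of 0.33. Scd1 (0.89) and Cd36, which is also among the genes linked to MAF proteins, had the largest rises. The call of Scd1 was lost without verapamil replicate 2 (adjusted p = 0.0614). The number higher was 2 without that library, and the number lower was 0 without control replicates 1 or 3 or any 1 verapamil replicate, and with the replicate block. For every one of these target lists, macrophage markers moved in the same libraries, and their part in the counts was not tested.

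The 8 tested members were also divided by the summed macrophage markers of their library. All share that divisor, so the ratios keep the order of the fold changes and place them against the marker sum. The difference in log2 ratio between groups was smallest for Spi1 (-0.18) and Ikzf1 (-0.21), then Cebpa (-0.37), Maf (-0.64), Cebpb (-0.65) and Cebpd (-0.86), and largest for Runx1 (-1.11) and Runx3 (-1.34). No ratio overlapped between groups, each had the exact permutation p of 0.1 that is the smallest possible with 3 against 3, and over the 13 ratios tested here the adjusted value was 0.118. With Lyz2 left out of the sum, differences were -0.13 for Cebpa, -0.40 for Maf, -0.41 for Cebpb, -0.62 for Cebpd, -0.86 for Runx1 and -1.10 for Runx3.

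**Figure D4:**
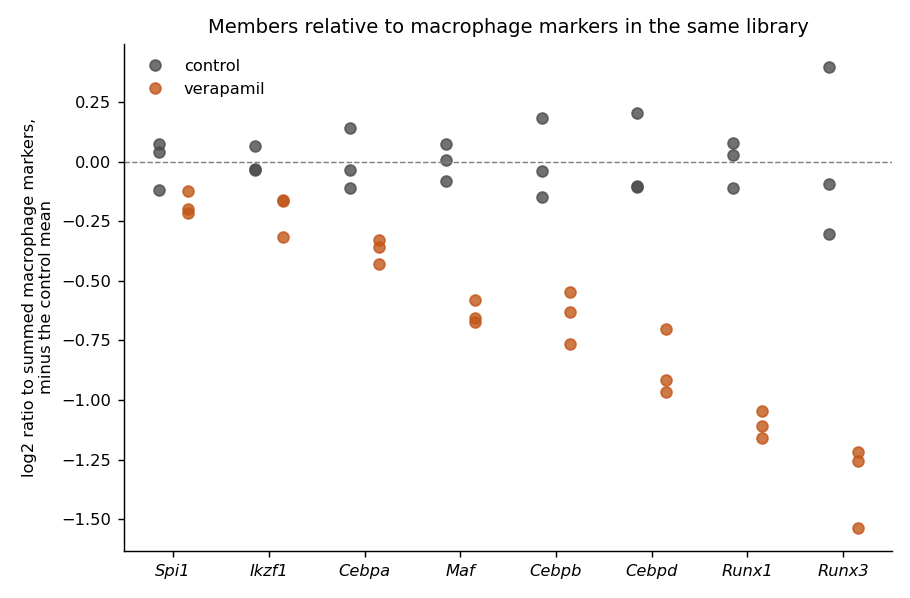
Log2 ratio of each tested member to the summed macrophage markers of its library, minus the control mean (y axis), for control and verapamil libraries (points). Verapamil points lie below the control points for every member, by 0.18 for Spi1 and up to 1.34 for Runx3, and for Spi1 and Ikzf1 the sign of the difference turns when Lyz2 is left out of the sum.

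Genes with the profile most like each member were taken from 10612 genes of at least 5 CPM, by the root mean square difference of centred log2 CPM over the 6 libraries. For Spi1 they were Cbr3 (0.0286) and Vill (0.0292), for Ikzf1 Crybg1 (0.0394) and the macrophage surface marker gene Adgre1 (0.0413), and for Cebpa Rgl1 (0.0224) and Tshz1 (0.0317). Runx1 was nearest to Sytl4 (0.0182) and Tmcc2 (0.0207), and Runx3 to Pter (0.0185) and Dlg4 (0.0278). Maf was nearest to Rfwd3 (0.0209) and Gpalpp1 (0.0213), Cebpb to Znrf1 (0.00701) and Ppil1 (0.0363), and Cebpd to Abhd14a (0.0253) and Smim10l1 (0.0274). With so many genes and 6 libraries, close profiles arise often, and the values are a description of these libraries.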

How the data were processed

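The authors deposited 1 table of estimated counts (expected counts per gene and library, a read count per the file headers), not scaled to depth or gene length, with 67.7% of values not whole. The build in the submitters' processing notes is GRCm38 (mm10); aligner, counter, annotation and strand setting were not given in the sources used, so reads of overlapping or antisense genes may be mixed. Columns were matched to samples by their labels. Counts were rounded and filtered with filterByExpr (minimum count 10, minimum total 15), which left 13366 of 17491 genes. Verapamil was compared with control with edgeR 4.0.16 in R 4.3.3 (TMM factors, robust quasi-likelihood fit, Benjamini-Hochberg adjustment over all genes tested, threshold 0.05). SE was derived from the fold change and the F statistic.

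Members and gene lists were chosen with earlier results of these data known. Genes were named as follows: all members, family genes of at least 1 CPM, and from each other list the 2 called genes with the largest change and no overlap between groups, or the most abundant gene where none was called. Other list genes in the text fall outside this rule and were not picked blind to their values. Among them are Lyz2, Cybb, Elane, Ltf, Prtn3, S100a8, Cd3d, Cd79a, Ms4a1, Cd4, Cd79b, Ifitm5 and Col1a2. A further gene of the family list and a ratio with it are not reported here.

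Transcript lengths came from GENCODE M21 for 16812 genes (96.1%). Coordinates and promoter windows came from RefSeq for GRCm38.p6, matched on Entrez ID for all 9 members. Ratios between members used counts as deposited. Cebpe over Cebpa, a planned ratio, was not computed because Cebpe had no reads in control replicates 2 and 3. On counts simulated for verapamil against control (13366 genes, 5 draws, 100 genes changed at each fold), recovery was 68.6% for 1.5-fold and 88.4% for 2-fold changes. Of the calls, 9.99% were false, above the 0.05 threshold. In the data 31.7% of genes were called, so these shares may not carry over. Alternatives were other scaling factors and filters, DESeq2 1.42.0, limma-voom (limma 3.58.1), a threshold of 0.01, a replicate block, and leaving out single libraries.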

Additional observations from a re-analysis of the deposited data

How the results depend on the processing

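The count of members that fell was 2 in all alternatives, and Spi1, Ikzf1, Runx1 and Runx3 kept their direction and side of the threshold in each of the 14. The count of members that rose was 2 to 4 with 1 library left out, the 4 being without control replicate 3, and 3 by DESeq2 or limma-voom. No pairing by replicate number was seen in the values: same-numbered samples had correlations of 0.00892, -0.167 and -0.127 in their deviations from the group means. The labels do not say if they were paired, and with 3 per group such correlations cannot settle it. With the replicate number as a block, the paired fit called 1364 genes higher and 1589 lower, against 2055 and 2180, and 2 members higher and 2 lower; no sample correlated best with its own number. Without the low-count filter 22.8% of genes were called, and without 1 library 16.6% to 37.4%. Among genes near 0, Mafg turned to 0.00737 with upper quartile factors and to 0.0724 with library totals, and Mafk to 0.00721 with library totals. With 1 library left out, Mafg ranged from -0.0428 to 0.00562, Ikzf5 from -0.214 to 0.0247 and Cebpz from -0.0341 to 0.0621. Without Lyz2 in the sum, the difference of Spi1 over macrophage sum turned to 0.0625 and that of Ikzf1 over macrophage sum to 0.0264, because Lyz2 rose more than the sum of the others. The causes of the other turns were not tested. Depth limits Cebpe, at 13 reads in all.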
